A study of Saccharomyces cerevisiae with 2 samples.

Results

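The genes described here are 57 Saccharomyces cerevisiae genes that encode enzymes of amino acid synthesis outside the sulfur pathway. They were chosen by name, as open reading frames (ORFs) listed in the tables of both replicates, and all 57 were found among 5798 ORFs. By pathway they comprise 7 arginine, 12 aromatic, 7 histidine, 11 branched chain, 8 lysine, 5 threonine, 4 serine and 3 nitrogen assimilation genes. The series asked which factors shape the use of polyadenylation sites in budding yeast, by deleting the ORF of 1 gene per strain. The strain analysed here, JZY65, carries a deletion of the RPB4 coding sequence (genotype delta rpb4), RPB4 being the gene of an RNA polymerase II subunit. The 1 group held 2 biological replicates of this strain, grown to mid-log phase in YPD at 30 °C, a rich medium that supplies amino acids. Poly(A) positions were read from total RNA by 3' READS, in which each read marks the base where a poly(A) tail was added. Both replicates carry the deletion and no parental strain was analysed here, so the values cannot be read as effects of the deletion and no test between groups was possible. The labels give neither other alleles of the strain nor how the cultures were related, so the spread between replicates may be partly technical.

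Yeast makes its amino acids from a few central metabolites through short chains of enzymes, most of which are encoded by separate, unlinked genes. Many of these genes are known targets of Gcn4, the transcription factor of general amino acid control, and are induced when amino acids run short. Like other yeast mRNAs, their transcripts end in a cluster of poly(A) sites a short way after the stop codon, and the site used sets the length of the 3' untranslated region (3' UTR).

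For each gene, 400 nt after the stop codon were searched for 3' ends (window reads). ORF windows held 27375875 and 24905701 reads in replicates 1 and 2, of which the amino acid synthesis genes took 378854 and 363801, or 1.38% and 1.46%. The deleted RPB4 ORF itself held 0 reads in both replicates, while its window held 4486 and 4066. HIS2, HIS6 and PHA2 also held 0 reads inside the ORF, so that count alone does not show a deletion. At least 100 window reads in each replicate were required, which 55 of the 57 genes and 4939 of all ORFs met. In the 4939 ORFs the median was 1402 and 1366 window reads. Where values of both replicates are given below, replicate 1 comes before replicate 2. The reads carried no molecular identifiers, so reads are not independent molecules and every interval covers counting error only.

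In this deletion strain, the median endpoint of the amino acid synthesis genes lay closer to the stop codon than that of all ORFs used. The mean endpoint of a gene is the read-weighted mean position of its window reads. The median over the 55 genes came to 104.1 and 104.9 nt, against 122.3 and 123.6 nt over all ORFs used. With the replicates averaged, the medians were 104.5 nt ± 0.552 in the amino acid synthesis genes (n = 55) and 122.8 nt ± 0.937 in all ORFs used (n = 4939), the error being the SD of the 2 replicate medians. The difference was -18.3 nt. These SDs tell how well the libraries repeat and not how far genes spread, and the genes, all of 1 strain, are not replicates of a condition. Of the 55 genes, 20 (36.4%) lay beyond the median of all ORFs, against 50% of all ORFs used. The middle 50% of the genes ran from 86.9 to 130.0 nt, against 91.5 to 169.5 nt in all ORFs used, so the upper end differed more than the lower. ARO3, ILV5 and SER3 had a mean endpoint over 200 nt (5.45% of the 55, against 16.0% of all ORFs used), and 45 of the 55 lay between 60 and 160 nt (81.8%, against 66.1%). When the most used position of each gene stood in for the mean endpoint, the difference was -13.0 nt.

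**Figure D1:**
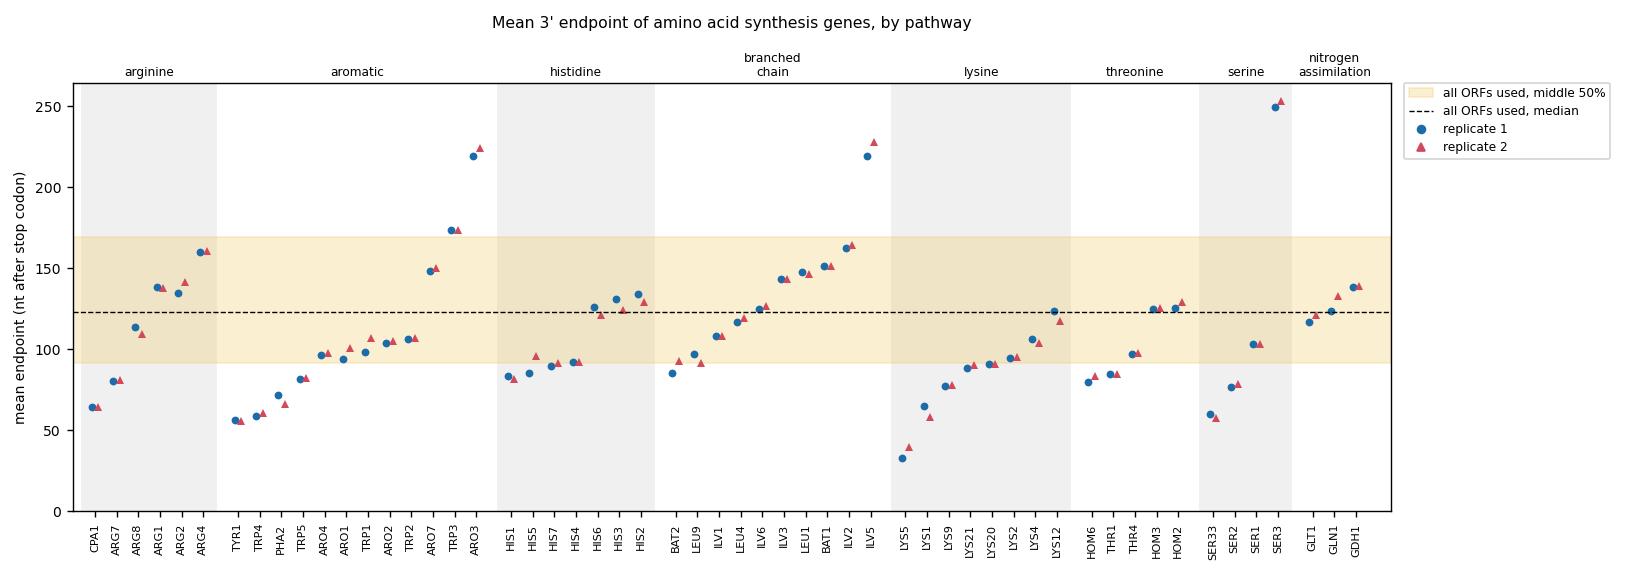
Mean endpoint in nt after the stop codon (vertical axis) of the 55 genes with enough reads, grouped by pathway and ordered within it. Circles are replicate 1 and triangles replicate 2, the dashed line is the median of all ORFs used (122.8 nt) and the band their middle 50%. Averaged over replicates, all 8 lysine genes lie below the line and SER3 lies highest at 251.4 nt.

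The replicates gave nearly the same endpoint for most genes. Replicate 2 gave the farther mean endpoint in 39 of the 55 genes and in 2918 of the 4939 ORFs used. The absolute difference between replicates had a median of 1.95 nt in the amino acid synthesis genes and 2.03 nt in all ORFs used. It was largest in HIS5, at 85.6 and 95.7 nt, a gene with only 243 and 254 window reads. GLN1 and ILV5 followed, at 123.9 and 133.1 nt and at 219.1 and 228.0 nt. Endpoints differed by more than 5 nt in 15 of the 55 genes (27.3%), and 24.0% of all ORFs used did so, a similar share. The most used position was the same base in both replicates in 43 of 55 genes (78.2%), against 83.8% of all ORFs used. The correlation of a gene's 2 profiles over positions had a median of 0.986 in these genes, with the lowest value of 0.853 in HIS5, and a median of 0.981 in all ORFs used.

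The genes also differed widely in the number of window reads. Each mRNA contributes reads only at its 3' end, so window reads per 1000000 window reads of all ORFs (RPM) need no correction for gene length. The median was 113.7 and 114.8 RPM in the amino acid synthesis genes, against 51.2 and 54.9 RPM in all ORFs used. On the log2 scale the medians of level differed by 1.11. This size depended on the genes kept: it was 0.42 with a minimum of 1000 window reads and 0.54 without genes whose window overlaps a feature on the same strand. The range was wide, from 6.76 and 7.75 RPM in ARG2 and 9.46 and 5.34 RPM in GLT1 to 2322 and 2361 RPM in ILV6. At least 10000 window reads in each replicate were counted for BAT2, CPA1, GLN1, HIS4, HOM6, ILV6, LYS12, THR1, THR4 and TRP5, or 18.2% of the 55, against 9.66% of all ORFs used. Level and mean endpoint had no clear relation across the 55 genes (Pearson r = -0.102, Spearman rho = -0.111), nor across all ORFs used (r = -0.092, rho = -0.0848), and genes are not independent replicates.

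**Figure D2:**
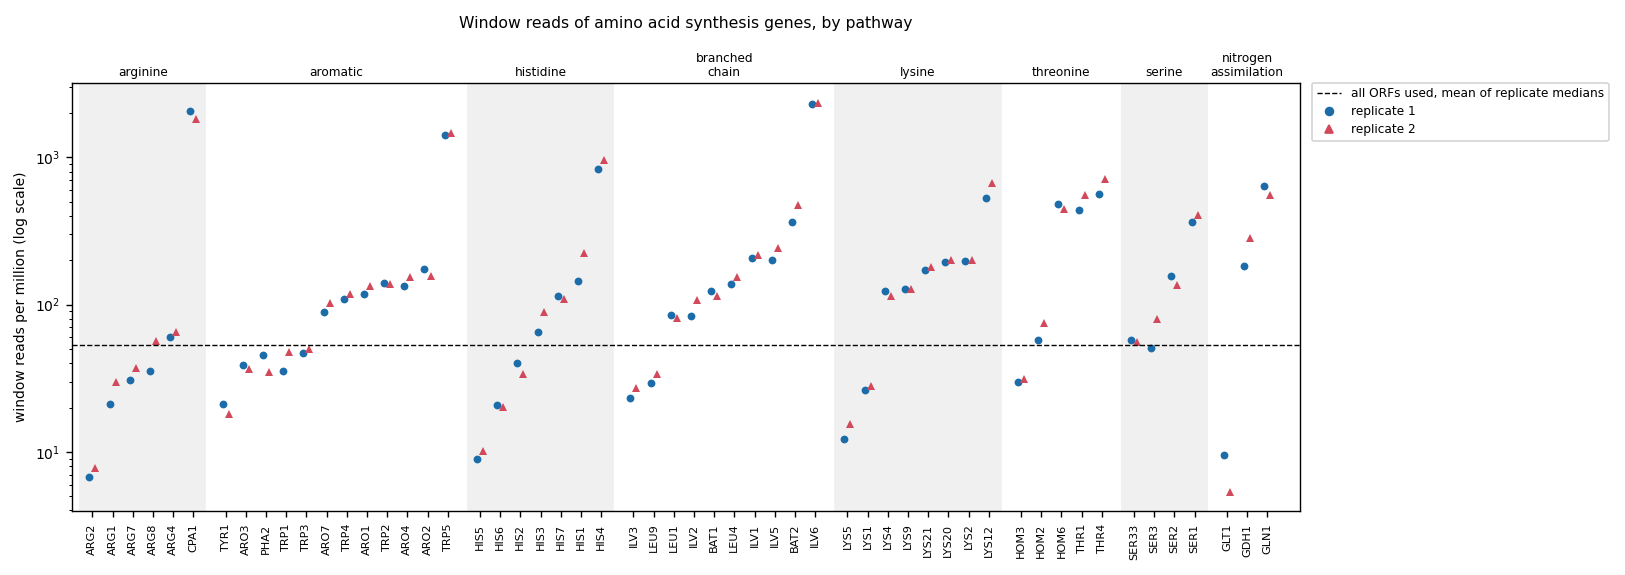
Window reads per 1000000 ORF window reads (RPM, log axis) of the same 55 genes by pathway, with circles for replicate 1 and triangles for replicate 2. The dashed line is the mean over replicates of the median of all ORFs used. ILV6, CPA1 and TRP5 stand above 1000 RPM and GLT1 and ARG2 below 10 RPM, in both replicates.

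In the arginine pathway, glutamate is acetylated, carried to ornithine and then joined with carbamoyl phosphate to give citrulline and arginine. The 6 arginine genes used had a median endpoint of 124.8 nt, close to that of all ORFs, and 3 of them lay beyond it. CPA1 (YOR303W, chromosome XV, 882899 to 884134, plus strand), the small subunit of carbamoyl phosphate synthetase, had the most reads of the pathway, 56758 and 45380. Its transcripts ended earliest of the group, at a mean of 64.5 and 64.7 nt, and 98.4% and 98.0% of its reads lay from 55 to 75 nt. ISW2 lies downstream on the same strand, 379 nt away, and so beyond nearly all of these reads. ARG2, the acetylglutamate synthase that opens the pathway, had the fewest reads of the 6 genes used, 185 and 193. Its reads fell into separate clusters at 96 to 116 nt, with 57.8% and 47.2% of reads, and at 154 to 172 nt, with 34.6% and 47.2%. ARG7, the ornithine acetyltransferase, ended at 80.4 and 81.0 nt. ARG8, the acetylornithine aminotransferase, ended at 113.7 and 109.4 nt, a mean that falls between clusters at 81 to 102 nt and 154 to 175 nt, while its most used position was 169 nt. ARG1, the argininosuccinate synthetase, was the most sharply defined of the pathway, with 69.9% and 60.8% of reads at 141 nt. ARG4, the argininosuccinate lyase that completes arginine, ended farthest of the group, at 159.8 and 160.7 nt.

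ARG3 (YJL088W, chromosome X, 268799 to 269815, plus strand), the ornithine carbamoyltransferase, could not be used, with 0 and 38 window reads and 1 read inside the ORF in each replicate. It was the gene of this pathway with the fewest reads in these libraries, below even ARG2. LEU2 (YCL018W, chromosome III, 91324 to 92418, plus strand), the isopropylmalate dehydrogenase of leucine synthesis, had 9 window reads in each replicate and none inside the ORF. HIS3 (YOR202W, chromosome XV, 721946 to 722608, plus strand), the imidazoleglycerol-phosphate dehydratase, had 1783 and 2222 window reads and 0 and 1 reads inside the ORF. A count of 0, with the limit taken as 3 reads over the ORF and window reads of the gene, allows a share inside the ORF of up to 0.168% in replicate 1. At most 2 reads inside the ORF in each replicate were also found in ARO7, BAT1, HIS2, HIS6 and PHA2, so 6 of 55 genes (10.9%) had so few, against 11.1% of all ORFs used. LEU2 is widely used as a selection marker in laboratory yeast. The labels do not say whether JZY65 carries an altered allele of it, and the cause of its low counts was not tested.

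The aromatic genes build chorismate and then branch to tryptophan, tyrosine and phenylalanine. Their median endpoint was 99.8 nt (n = 12), and 3 of 12, ARO3, ARO7 and TRP3, lay beyond the median of all ORFs. At the entry to the pathway, ARO3 and ARO4 encode DAHP synthases that differ in the amino acid that inhibits them. ARO3 transcripts ended farthest of the group, at 219.0 and 224.1 nt. ARO4 transcripts ended at 96.6 and 97.7 nt, and no replicate of the 2 genes came near the other. ARO1, the pentafunctional enzyme of the middle steps, ended at 93.8 and 100.5 nt, over clusters at 53 to 70 nt and 91 to 145 nt. ARO2, the chorismate synthase, ended at 104.1 and 104.9 nt, next to the median of the whole set. ARO7, the chorismate mutase at the branch to tyrosine and phenylalanine, ended at 148.6 and 150.2 nt. It was among the least focused genes, with 16.5% and 13.4% of reads at its most used position of 132 nt.

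The tryptophan branch held both compact and long 3' ends. TRP2, a subunit of anthranilate synthase, ended at 106.6 and 107.2 nt, and TRP3, its partner subunit, ended at 173.4 and 173.7 nt. These subunits of 1 complex thus differed by much more than either pair of replicates. TRP4, the anthranilate phosphoribosyl transferase, ended at 58.8 and 60.7 nt. TRP1, the phosphoribosylanthranilate isomerase, ended at 98.1 and 106.8 nt, over the broadest profile of the aromatic genes. Of the TRP1 reads, 5.74% and 8.88% lay beyond 300 nt, and over positions 1 to 300 the mean endpoint was 82.5 nt. TRP5 (YGL026C, chromosome VII, 446412 to 448535, minus strand), the tryptophan synthase, had the most reads of the aromatic group, 38971 and 36255, and ended at 81.8 and 82.4 nt. TYR1, the prephenate dehydrogenase of tyrosine synthesis, had the fewest, 580 and 453, and the nearest endpoint of the group, at 56.6 and 56.0 nt. PHA2, the prephenate dehydratase of phenylalanine synthesis, ended at 71.9 and 66.0 nt.

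The histidine genes had a median endpoint of 92.3 nt (n = 7), with 3 beyond the median of all ORFs. HIS1, the ATP phosphoribosyltransferase that starts the pathway, ended nearest to the stop codon, at 83.6 and 81.9 nt. HIS4, a multifunctional enzyme, had the most reads, 22815 and 23804, and its profiles were almost identical in both replicates (r = 0.9995), with 32.7% and 33.4% of reads at 81 nt. HIS6, the isomerase, ended at 126.2 and 121.4 nt. HIS7, the imidazole glycerol phosphate synthase, ended at 89.8 and 91.8 nt, with 15.5% and 17.8% of reads in a distal cluster at 176 to 184 nt. HIS3 ended at 131.0 and 124.5 nt, and DED1 lies within its window. Of the HIS3 reads, 5.273% and 1.755% lay beyond 300 nt. Over positions 1 to 300 its mean endpoint moved from 127.7 to 121.1 nt. HIS5, the histidinol-phosphate aminotransferase, had the fewest reads of the group. HIS2, the histidinol phosphatase, ended farthest, at 134.0 and 129.0 nt, with 61.4% and 51.6% of reads at 143 nt. Windows overlapped a same-strand feature in HIS2, HIS3, HIS4 and HIS7, a higher share than in any other pathway here (4 of 7).

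The branched chain genes make isoleucine, valine and leucine, and had the highest median endpoint of the 8 pathways, which were not tested against each other. It was 134.6 nt (n = 10), and 6 of 10 lay beyond the median of all ORFs. ILV1, the threonine deaminase of isoleucine synthesis, ended at 108.0 and 108.1 nt. ILV2, the catalytic subunit of acetolactate synthase, ended at 162.2 and 164.5 nt with 85.0% and 81.2% of reads at 161 nt, the highest share at 1 position of all 55 genes. ILV6 (YCL009C, chromosome III, 104619 to 105548, minus strand), its regulatory subunit, had the most reads of all 55 genes, 63563 and 58810, and ended at 125.1 and 126.7 nt. ILV6 thus had many times the window reads of ILV2, which had 2291 and 2665. SGF29 lies 268 nt downstream on the same strand, and 99.5% of ILV6 reads in each replicate lay nearer, from 81 to 149 nt. ILV5 (YLR355C, chromosome XII, 838066 to 839253, minus strand), the acetohydroxyacid reductoisomerase, ended farthest of the group, at 219.1 and 228.0 nt. ILV3, the dihydroxyacid dehydratase, had the fewest reads of the 10 genes used, 637 and 673, and ended at 143.2 and 143.6 nt.

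In the leucine branch, LEU4 and LEU9 encode isopropylmalate synthases and LEU1 the isomerase that follows. LEU4 ended at 116.9 and 119.5 nt, and LEU9 at 97.3 and 91.5 nt. LEU1 ended at 147.4 and 146.4 nt. The aminotransferases that complete all 3 amino acids are BAT1, the mitochondrial form, and BAT2, the cytosolic form. BAT1 ended at 151.6 nt in both replicates. BAT2 ended nearest of the group, at 85.3 and 92.6 nt, with 57.2% and 55.1% of reads at 63 nt. Of its reads, 3.96% and 5.73% lay beyond 300 nt, and 6.83% and 8.69% lay past the start of YJR149W, the tandem ORF downstream. Over positions 1 to 300 its mean endpoint was 77.2 nt.

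With replicates averaged, all 8 lysine genes had a mean endpoint before the median of all ORFs. The group median was 90.2 nt, and the farthest gene, LYS12, lay at 123.4 and 117.6 nt, beyond the median of all ORFs in replicate 1 alone. Yeast makes lysine by the aminoadipate route, which starts with the homocitrate synthases LYS20 and LYS21. LYS20 ended at 91.1 nt in both replicates, and LYS21 at 88.5 and 90.1 nt. LYS4, the homoaconitase, ended at 106.3 and 103.7 nt. LYS12, the homoisocitrate dehydrogenase, had the most reads of the group, 14609 and 16626, spread over 2 broad clusters at 47 to 106 nt and 127 to 207 nt. LYS2, the aminoadipate reductase, ended at 94.5 and 95.1 nt, with 25.4% and 24.7% of reads in a distal cluster at 121 to 140 nt. LYS9 and LYS1, the enzymes of the saccharopine steps, ended at 77.4 and 78.3 nt and at 64.9 and 58.4 nt. LYS5 (YGL154C, chromosome VII, 215278 to 216096, minus strand), the phosphopantetheinyl transferase that activates Lys2, had the fewest reads, 334 and 384. It ended nearest to the stop codon of all 55 genes, at 32.8 and 40.02 nt, and 59.3% and 46.4% of its reads lay 4 nt after the stop codon. Counting only positions 21 to 400 moved its mean endpoint to 92.2 nt.

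The threonine genes carry aspartate through homoserine to threonine,, which also feeds isoleucine synthesis. The group's median level was 439.8 and 443.9 RPM, and HOM6, THR1 and THR4 each had over 10000 reads in both replicates. HOM3, the aspartate kinase at the start, had the fewest, 815 and 782, and ended at 124.6 and 125.5 nt with 49.3% and 48.0% of reads at 112 nt. HOM2, the aspartic semialdehyde dehydrogenase, ended farthest, at 125.6 and 129.2 nt. HOM6, the homoserine dehydrogenase, ended nearest, at 79.6 and 83.3 nt. THR1, the homoserine kinase, ended at 85.1 and 84.8 nt. THR4, the threonine synthase, had the most reads, 15544 and 17809, and ended at 97.1 and 97.5 nt. HOM2 and HOM3, which lay beyond the median of all ORFs, had fewer reads than the 3 others.

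The 4 serine genes held both a near and a far extreme. SER33 and SER3 encode phosphoglycerate dehydrogenases, which start serine synthesis from a glycolytic intermediate. SER33 ended nearest of the group, at 59.98 and 57.4 nt. SER3 (YER081W, chromosome V, 322686 to 324095, plus strand) ended farthest of all 55 genes, at 249.6 and 253.2 nt, with 49.7% and 48.1% of reads at 260 nt. SER1, the phosphoserine aminotransferase, had the most reads, 9912 and 10145, and ended at 103.3 and 103.5 nt. SER2, the phosphoserine phosphatase, ended at 76.7 and 78.9 nt. SER3 and SER33 had the fewest reads of the group, 1399 and 2000 in SER3 and 1564 and 1385 in SER33. SER3 was 1 of 6 genes whose level differed between replicates by more than 0.5 on the log2 scale, with ARG1, ARG8, GDH1, GLT1 and HIS1. These were 10.9% of the 55, against 10.4% of all ORFs used.

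The nitrogen assimilation genes load ammonium onto glutamate and glutamine, the donors for the other pathways. GDH1, the NADP-dependent glutamate dehydrogenase, ended farthest of the 3, at 138.7 and 139.3 nt, with 74.96% and 72.3% of reads at 140 nt. GLN1, the glutamine synthetase, had the most reads, 17594 and 13879, and ended at 123.9 and 133.1 nt. GLT1, the glutamate synthase, had the fewest, 259 and 133, and ended at 116.6 and 121.2 nt. All 3 lay in the middle 50% of all ORFs. With 3 genes, their median of 128.5 nt is a description only.

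**Figure D3:**
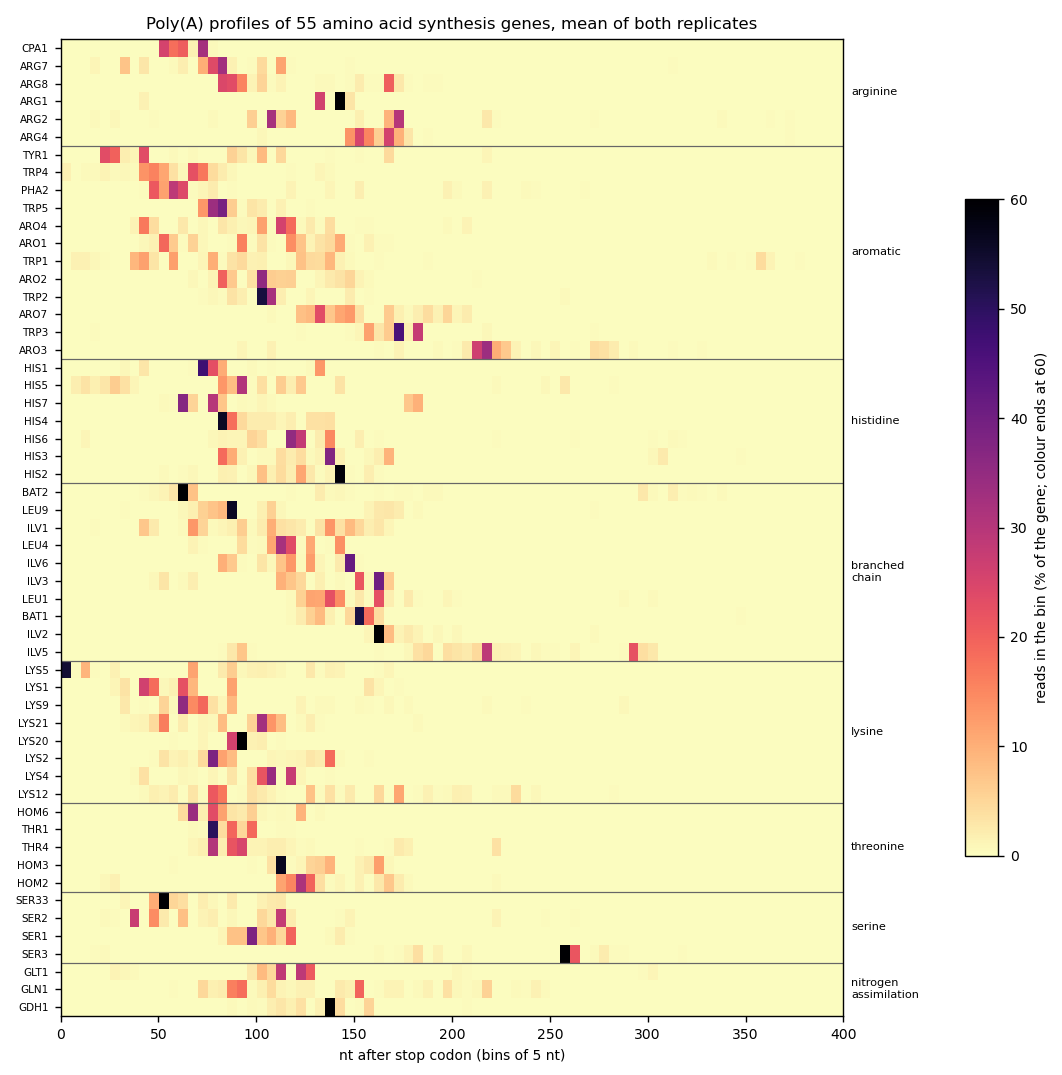
Share of each gene's window reads in bins of 5 nt after the stop codon (horizontal axis), as the mean of both replicates, for the 55 genes in their pathways (rows). Dark bins mark narrow peaks, as in ILV2, GDH1 and LYS20, and rows such as ILV1 and LYS12 spread over many pale bins.

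The genes ranged from nearly 1 poly(A) site to broad fields of sites. The effective number of positions (e raised to the Shannon entropy) tells how many equally used positions would give the same spread. Its median was 8.55 in the amino acid synthesis genes and 8.46 in all ORFs used, a similar value. The narrowest profiles were those of ILV2, with 1.96 and 2.39 effective positions, ARG1, with 2.51 and 2.83, and LYS20, with 3.69 and 3.06. The broadest were those of ILV1, with 24.5 and 23.8, LYS12, with 21.3 and 19.1, and TRP1, with 17.9 and 21.4. In ILV1 the most used position, 139 nt, took only 12.4% and 13.4% of reads. TRP1 was similar, with 12.3% of reads at 39 nt in replicate 1 and 12.4% at 59 nt in replicate 2. GLN1 took 17.8% and 21.6% at its most used position.

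More than 50% of reads at 1 position, as the mean of both replicates, were found in 9 of 55 genes (16.4%), against 19.2% of all ORFs used. These were ARG1, BAT2, GDH1, HIS2, ILV2, LEU9, LYS20, LYS5 and SER33, which come from 6 of the 8 pathways, though LYS5 passed 50% in replicate 1 alone. The median share at the most used position was 31.1% in the amino acid synthesis genes and 33.7% in all ORFs used. ILV2, GDH1 and ARG1 had the highest shares, and TRP1, ILV1 and ARO7 the lowest.

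Separate site clusters were the rule in some genes. A cluster joined positions with at least 1% of reads that lay at most 20 nt apart, and it was counted when it held at least 10% of reads. With this definition 16 of 55 genes (29.1%) had 2 clusters, none had more, and 31.6% of all ORFs used had at least 2. The genes were ARG2, ARG7, ARG8, ARO1, GLN1, HIS1, HIS3, HIS5, HIS7, ILV3, ILV5, LYS12, LYS2, LYS5, SER2 and TYR1. The count rests on the gap, since joining positions only up to 10 nt apart gave 33 genes and up to 40 nt gave 7. The shares of all ORFs used were not computed at these other gaps.

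In ILV5 the clusters lay at 182 to 226 nt with 59.2% and 48.8% of reads and at 292 to 302 nt with 24.0% and 33.8%, both beyond the median of all ORFs. In SER2 (YGR208W, chromosome VII, 911883 to 912812, plus strand) the clusters lay at 39 to 77 nt, with 58.0% and 53.0% of reads, and at 102 to 118 nt, with 34.7% and 40.7%. In GLN1 (YPR035W, chromosome XVI, 642208 to 643320, plus strand) they lay at 72 to 124 nt, with 57.3% and 48.5%, and at 145 to 218 nt, with 36.6% and 44.6%. In HIS5, 27.2% and 14.96% of reads lay at 7 to 39 nt and 64.6% and 76.4% at 85 to 122 nt. Over the 16 genes, the cluster nearer to the stop codon held a larger share in replicate 1 in 10 genes and in replicate 2 in 6. The same split was not computed for all ORFs with 2 clusters, so it cannot be read as a trait of these genes.

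**Figure D4:**
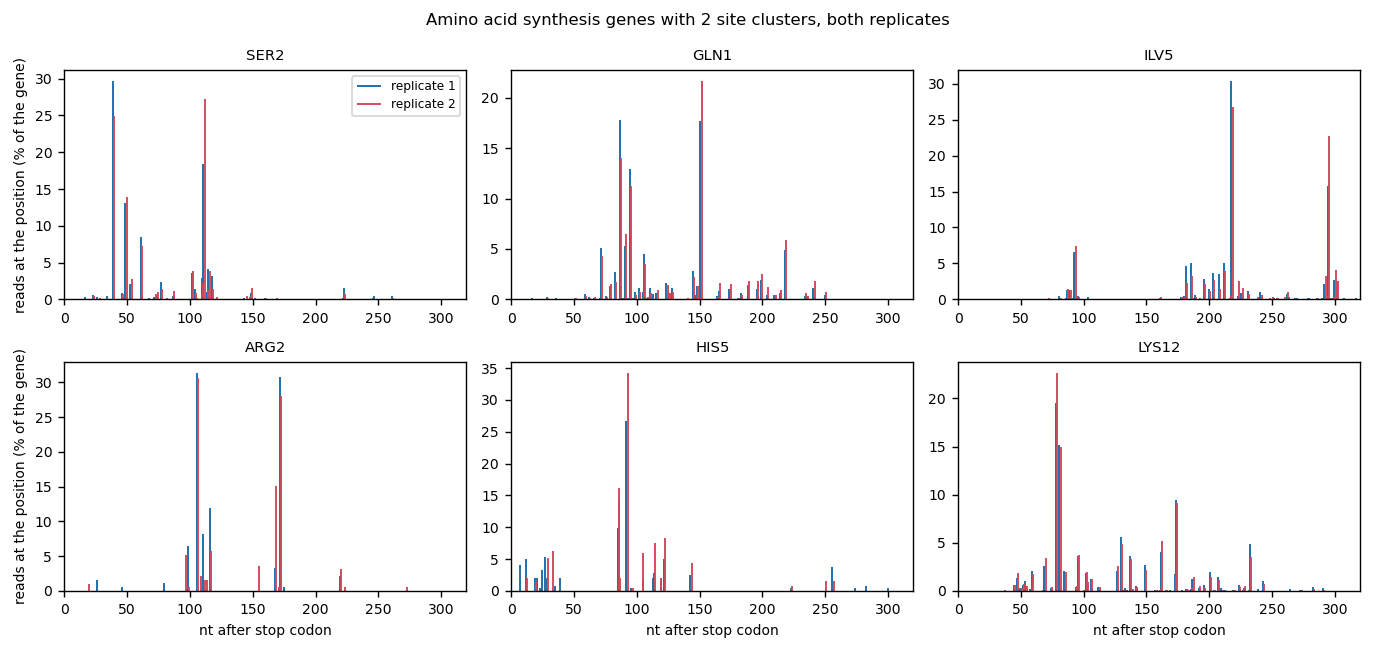
Share of window reads at each position in nt after the stop codon for 6 genes with 2 site clusters, replicate 1 in blue and replicate 2 in red. In SER2 and GLN1 the tallest peak belongs to a different cluster in each replicate (39 and 111 nt, and 87 and 151 nt).

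The most used position differed between replicates in 12 genes. They were ARG4, ARG7, GLN1, GLT1, LEU1, LYS1, LYS4, PHA2, SER2, THR4, TRP1 and TYR1, and in 8 of them (14.5% of the 55, against 9.13% of all ORFs used) the positions were more than 10 nt apart. SER2 differed most, with 29.6% of reads at 39 nt in replicate 1 and 27.2% at 111 nt in replicate 2, yet its mean endpoints were only 76.7 and 78.9 nt. GLN1 followed, with 17.8% at 87 nt in replicate 1 and 21.6% at 151 nt in replicate 2. The other differences were smaller, such as 44 and 23 nt in TYR1 and 61 and 43 nt in LYS1. LYS1 also had one of the lowest correlations between replicate profiles, 0.854.

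Some reads ended inside the coding sequence. The share inside the ORF, out of ORF and window reads, had a median of 0.895% and 0.848% in the amino acid synthesis genes, against 1.12% and 1.11% in all ORFs used. It passed 5% in both replicates in 9 of 55 genes (16.4%), and in 22.1% of all ORFs used. The genes were ARG2, ARO1, ARO4, GLT1, HIS5, LEU9, LYS5, SER3 and TYR1.

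LYS5 had the highest share inside the ORF, 45.3% (95% Wilson interval 41.4 to 49.3) and 48.3% (44.7 to 51.9). Its main window peak lay 4 nt after the stop codon, and a farther cluster at 68 to 108 nt held 23.65% and 27.86% of its window reads. SER3 had 43.6% (41.6 to 45.5) and 30.9% (29.3 to 32.6), intervals that do not overlap, so the replicates differed by more than counting error. GLT1 had 27.0% (22.7 to 31.9) and 30.4% (24.3 to 37.2), from 96 and 58 reads. ARO1 had 25.3% (24.0 to 26.6) and 29.2% (28.0 to 30.6), from 1089 and 1371 reads, and these intervals do not overlap either. GLT1 (YDL171C, chromosome IV, 149203 to 155640, minus strand) and ARO1 (YDR127W, chromosome IV, 704484 to 709250, plus strand) are long genes, and the part played by length was not tested. TYR1 had 10.5% (8.36 to 13.1) and 23.6% (20.4 to 27.2), and HIS5 had 13.8% (10.3 to 18.4) and 21.4% (17.2 to 26.2). Of these 6 genes, SER3, ARO1 and TYR1 thus had intervals that do not overlap. Intervals that overlap, as in HIS5, do not show that the replicates were the same within counting error. At the other end, PHA2, HIS2 and HIS6 held 0 reads inside the ORF in both replicates, which by the same limit of 3 reads allows shares of up to 0.242% and 0.343% in PHA2, 0.273% and 0.358% in HIS2, and 0.525% and 0.599% in HIS6.

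Most neighbours downstream lay in convergent or tandem orientation, and the median endpoint lay nearer to the stop codon than in all ORFs in both classes. Among the 55 genes, 21 had a convergent ORF downstream, with a median endpoint of 111.6 nt, against 125.8 nt in all 2191 such ORFs used. A tandem ORF lay downstream of 23, with a median of 97.1 nt, against 117.2 nt in all 1813 such ORFs used. Positions between convergent genes lie in the windows of both, and at these bases only 1.72% and 1.26% of the reads of the amino acid synthesis genes were matched by reads counted for the neighbour. The deposited counts therefore kept the strands apart. Among the 23 tandem genes, 0 had over 10% of reads past the edge of the ORF that follows in both replicates, against 4.42% of 1808 tandem ORFs whose neighbour starts after the stop codon.

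Several convergent genes ended inside the coding sequence of the neighbour on the opposite strand. In SER3, 95.9% and 98.9% of window reads lay past the end of UTP7, which is 176 nt away. In PHA2 (YNL316C, chromosome XIV, 42071 to 43075, minus strand), 63.0% and 70.5% lay past the end of PFS2, only 54 nt away. In ARG2 (YJL071W, chromosome X, 306132 to 307856, plus strand), 50.8% and 57.5% lay past the end of YJL070C, 114 nt away. ARG4, LYS12, LYS2, LYS5 and SER2 also passed 10% in both replicates, so 8 of 21 convergent genes did (38.1%), against 37.0% of 2172 convergent ORFs that do not overlap the neighbour. Over 50% was reached by 3 of 21 (14.3%), against 21.1% of these ORFs. The neighbour of SER2 is TRX2, 100 nt away, and 39.5% and 44.97% of SER2 reads lay past its end, including the whole distal cluster.

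The 6 pairs of paralogous enzymes differed in the positions of their 3' ends. Paralogs arose by duplication and keep related coding sequences. The sources used here do not say how reads that match several places were treated. GDH3, a glutamate dehydrogenase that is not among the 57 genes, was set against GDH1 as the sixth pair. The part of their profiles that a pair shared, position by position after the stop codon, was 0.0661% to 3.64%. Even a small shift lowers this share, and it was not computed for unrelated genes. It therefore cannot tell whether paralogs share less than other genes do. The endpoint differences, taken as the gene named before minus the gene named after, covered the whole range from near 0 to the most extreme in the set. LYS20 minus LYS21 was 2.55 and 1.05 nt, GDH1 minus GDH3 was 30.0 and 31.0 nt, and LEU4 minus LEU9 was 19.6 and 28.0 nt. Over positions 1 to 300, the mean endpoint of GDH3 moved to 84.7 nt and the mean of GDH1 minus GDH3 to 54.2 nt. BAT1 minus BAT2 was 66.3 and 59.1 nt, ARO3 minus ARO4 was 122.4 and 126.4 nt, and SER3 minus SER33 was 189.7 and 195.8 nt. The mean difference was 1.69 times its SD between replicates for LYS20 and LYS21 and at least 3.98 times for the other pairs.

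LYS20 and LYS21 had nearly equal mean endpoints but different profiles. LYS20 put 61.7% and 66.4% of its reads at 92 nt, and LYS21 put 29.9% and 34.6% at 102 nt with a further group of sites from 47 nt onward. The effective number of positions was 3.69 and 3.06 in LYS20 and 11.7 and 11.1 in LYS21. Levels were also close, with LYS20 at 1.13 times the reads of LYS21 in each replicate. Both genes are followed in tandem by an ORF 455 nt away, INH1 after LYS20 and STF1 after LYS21. The pairs that differed in endpoint differed in level too in most cases: GDH1 had 20.2 and 22.8 times the reads of GDH3, and LEU4 had 4.68 and 4.54 times those of LEU9. BAT1 had 0.339 and 0.242 times the reads of BAT2, and ARO3 had 0.293 and 0.236 times those of ARO4. SER3 and SER33 had no settled order, at 0.895 and 1.44 times.

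**Figure D5:**
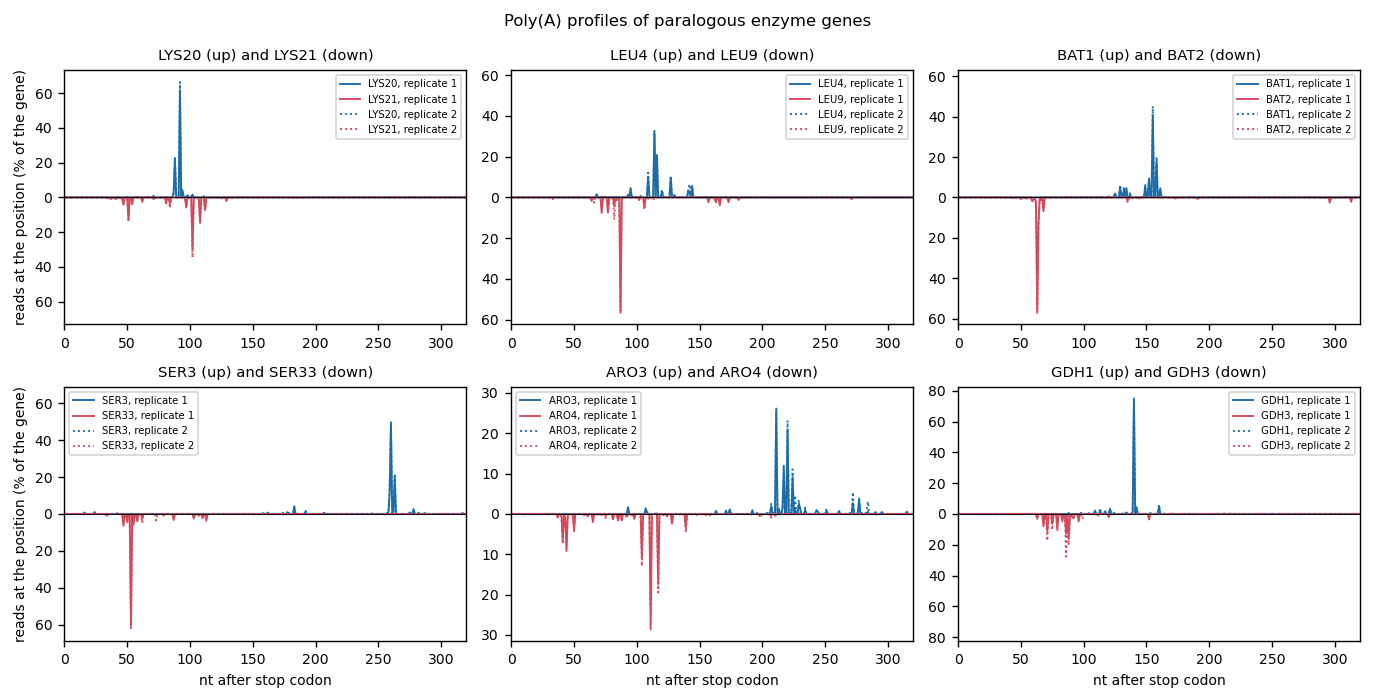
Poly(A) profiles of the 6 paralog pairs as percent of each gene's window reads per position (vertical axis) against nt after the stop codon. The gene named before is drawn upward in blue and the gene named after downward in red, with solid lines for replicate 1 and dotted lines for replicate 2. SER3 and SER33 peak at 260 and 53 nt, and LYS20 and LYS21 at 92 and 102 nt.

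Related genes outside the 57 gave context for the short endpoints. A list of 18 further enzymes of amino acid metabolism had a median endpoint of 107.0 nt, with 5 of 18 beyond the median of all ORFs, much like the 55 genes. Of 11 regulators of these pathways, 10 had enough reads, and their median was 139.4 nt with 7 of 10 beyond that of all ORFs. GCN4, the main activator, lay nearest of these regulators, at 94.4 and 94.5 nt. GLN3, an activator of nitrogen genes, lay farthest, at 252.4 and 251.3 nt. The medians of both enzyme lists thus lay before that of all ORFs and the median of the regulators after it, and the lists were not tested against each other.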

How the data were processed

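Values came from 2 deposited tables, 1 per biological replicate. Per the file headers, the authors gave reads inside each feature, reads in the 400 nt after it and reads at its highest position. In these deposited signal columns every value is a whole number of reads multiplied by 1 factor per library (0.8577 and 0.9403), whose purpose the sources used here do not state. Further deposited columns give each position as a percent of the most used one, per the file headers. Per the submitters' processing notes Bowtie was used. Neither its version nor the build nor the treatment of reads with several matches was given in the sources used here. All 57 genes have the coordinates of assembly R64. A table with both replicates combined was not used.

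Dividing by the factor gave whole reads: 99.998% and 99.995% of positions (genes with at most 2000 reads at 1 position) and 99.83% and 99.86% of window totals lay within 0.1 of a whole number. With 1 group no count test applies, and values are described with the spread over 2 replicates. Recomputed endpoints differed from the deposited ones by at most 0.0496 nt. A window was called overlapping when a listed feature on the same strand lay within it. The 55 genes include 17 of these (30.9%), against 23.8% of all ORFs used. Window reads that lie within the overlapping feature cannot be split from those of the feature. The endpoint and cluster measures were tested on simulated data. The entropy measure was only computed on fixed profiles, without a pass limit. The genes, lists, pairs and measures were chosen with earlier results of these data known. The naming rule takes, per pathway, the genes with extreme endpoints and read counts, both genes of each pair, the 3 genes at each extreme of focus, spread, difference between replicates and share inside the ORF, and genes under 100 reads. Other genes were named after their values were seen. The strand check, the count of endpoints over 5 nt apart and the limits behind the other counts of genes were chosen after seeing the data. Python 3.11.15, numpy 2.4.6, pandas 2.3.3, scipy 1.17.1 and matplotlib 3.10.9 were used.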

Additional observations from a re-analysis of the deposited data

How the results depend on the processing

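The amino acid synthesis genes had a shorter median endpoint than all ORFs used under every alternative run, with differences from -20.3 to -13.0 nt: -20.1 nt with no minimum of reads, -15.3 nt with a minimum of 1000, -20.3 nt without overlapping windows, -15.2 nt over positions 1 to 300, -16.0 nt for the median position, -13.0 nt for the most used position, and -18.7 to -18.2 nt when either replicate was left out. A minimum of 1000 reads and leaving out overlapping windows each kept 38 genes, so counts fall by construction. The shares of all ORFs used were not computed under the alternative settings, so the counts below show only how they depend on the setting. Without overlapping windows, 12 genes lay beyond the median of all ORFs, 27 had the same most used position in both replicates and 5 had over 50% of reads at 1 position. With a minimum of 1000 reads, 5 genes had over 50% at 1 position, 9 had 2 clusters, 3 had over 5% inside the ORF and 6 had replicate endpoints over 5 nt apart. A cluster gap of 10 nt gave 33 genes and one of 40 nt gave 7, a limit of 2% inside the ORF gave 16 genes, and endpoints differed by over 2 nt in 27 genes and over 10 nt in 1. The difference of log2 RPM was 1.36 with no minimum, 0.42 with a minimum of 1000, 0.54 without overlapping windows and 1.02 with ORF reads added. Over positions 1 to 300, BAT1 minus BAT2 was 73.6 nt. The cause of these shifts was not tested. The design has no replicate numbers shared between groups, and no paired analysis was possible because there was 1 group. The planned counts of TATATA upstream of the sites and of TGACTC in promoters were not run, and sequences are not analysed here. Depth limits GLT1, ARG2, HIS5 and LYS5 most, with under 400 window reads, and transcripts ending past 400 nt were not measured.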

Other observations

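Among the 18 further enzymes, ASN2, an asparagine synthetase, differed most between replicates, with mean endpoints of 166.7 and 182.9 nt. Its most used positions were 112 and 212 nt, and the cluster at 112 to 124 nt held 46.2% and 30.3% of reads while that at 204 to 232 nt held 49.3% and 65.0%. ASN1, the related synthetase gene, stayed at 127.3 and 126.9 nt. AAT2, the cytosolic aspartate aminotransferase, ended nearest to the stop codon of these enzymes, at 44.1 and 44.8 nt, with 70.1% and 72.3% of its 91086 and 72328 reads at 49 nt. GDH2, the NAD-dependent glutamate dehydrogenase, had 50.9% and 44.7% of reads inside the ORF.

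Among the regulators, GCN4 had 86.6% and 88.1% of its 55832 and 80480 window reads at 95 nt, a higher share at 1 position than any of the 55 synthesis genes. The shares inside the ORF were 30.3% and 31.3% in LEU3, 27.2% and 26.5% in LYS14 and 48.1% and 38.7% in ARG82. These were the highest of the 10 regulators used, whose median share was 5.37% and 3.498%. ARG82 had only 139 and 141 window reads, and the correlation of its replicate profiles was 0.4356. ARG80 had only 9 and 4 window reads and was not used.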
